A study of Mus musculus with 6 samples.

Results

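The 10 genes described here encode the enzymes that carry glucose carbon from fructose 6-phosphate to lactate: the phosphofructokinase genes *Pfkl*, *Pfkm* and *Pfkp*, then *Aldoa*, *Tpi1*, *Pgk1*, *Pgam1*, *Eno1*, *Pkm* and *Ldha*. They were chosen by symbol as core enzymes below hexokinase and are 10 of the 54331 genes in the table. *Aldoa* is listed under 2 Ensembl identifiers, so that 11 rows carry these 10 symbols. *Gpi1*, which acts just before these steps, and *Gapdh*, which acts between them, were counted with the upper steps of the pathway.

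Both groups were mouse embryonic fibroblasts (MEFs) from E13.5 male embryos carrying the Oct4-EGFP transgene on a mixed background of C57BL/6, DBA/2 and ICR. All cells had been infected with retroviruses for *Oct4*, *Sox2* and *Klf4* (OSK) and for AKT-MER (A), a myristoylated AKT joined to a modified estrogen receptor that is active only in the presence of 4-hydroxytamoxifen (4OHT). The infected cells were plated into wells at 3 dpi. From then on 3 wells received 1 µM 4OHT (OSKA + 4OHT, the treated wells) and 3 wells its ethanol vehicle (OSKA − 4OHT, the control wells), and polyA RNA of each well was sequenced at 10 dpi. The MEFs came from several pooled embryos and the replicates are wells, so p-values measure the spread between wells, which may be technical. A direct effect of 4OHT cannot be told apart from that of active AKT in these 6 wells, since both groups carried AKT-MER.

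In glycolysis, phosphofructokinase commits hexose phosphate to breakdown, aldolase and triosephosphate isomerase turn it into triose phosphate, phosphoglycerate kinase and pyruvate kinase make ATP, and lactate dehydrogenase regenerates NAD+ by reducing pyruvate. AKT is known to raise glucose uptake and use, and pluripotent stem cells are known for a higher glycolytic rate than fibroblasts. The comparison asks how the transcripts of these enzymes differed at 10 dpi when AKT was active.

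The values are TPM, a measure of transcript abundance that is corrected for transcript length and adds up to 1000000 in each well, so the sequencing depth is not kept and is unknown here. The test was limma on log2(TPM + 0.5), run on all 15382 genes that averaged 1 TPM or more, and "adjusted p" is the Benjamini-Hochberg value over all of them. Fold changes on this scale understate the change of low genes. The wells of a group correlated across genes at 0.809 to 0.864. Mitochondrially encoded genes took 15.6% to 19.3% of TPM in the OSKA − 4OHT wells and 14.5%, 13.9% and 20.8% in OSKA + 4OHT replicates 1, 2 and 3. In bulk RNA, fewer cells of a type and less RNA per cell cannot be told apart. The pluripotent cell markers *Nanog*, *Zfp42*, *Dppa5a* and *Tdgf1* rose among 7 tested of 8, with a summed level of 12.9 to 15.3 TPM in the OSKA − 4OHT wells and 53.3 to 67.4 TPM in the OSKA + 4OHT wells, and *Dppa5a* was listed at 0 in all 3 control wells. The epithelial markers *Cdh1*, *Epcam* and *Krt8* rose among 7 tested of 8 (summed 53.9 to 153 TPM against 265 to 286 TPM). Fibroblast markers were present in every well, and of these 10 genes *Col3a1* and *Lum* rose and *Col1a2* and *Pdgfrb* fell, with sums of 3174 to 3877 TPM against 2963 to 3378 TPM. Among 8 macrophage markers, *Lyz2* fell, and the sum was 128 to 159 TPM against 84.1 to 95.2 TPM. *Myod1* and *Myog*, which define skeletal muscle, were listed at 0 in every well, and *Acta1* fell among the 3 muscle markers tested of 9 (summed 23.2 to 91.9 TPM against 17.6 to 32.6 TPM). The red blood cell list was led by embryonic *Hbb-y* and summed to 545 to 639 TPM against 510 to 565 TPM. The part of these differences in the levels of the glycolytic genes was not tested.

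The 10 genes together made up 0.463% to 0.470% of all TPM in the OSKA − 4OHT wells and 0.824% to 0.914% in the OSKA + 4OHT wells. Their summed level was 4634, 4649 and 4699 TPM in OSKA − 4OHT replicates 1, 2 and 3, and 9144, 8759 and 8241 TPM in OSKA + 4OHT replicates 1, 2 and 3. The mean was thus 4661 ± 33.9 TPM (SD, n = 3) without 4OHT and 8715 ± 453 TPM (SD, n = 3) with it, a ratio of 1.87. After rescaling by a trimmed mean of log ratios between wells, which leaves out the most variable genes, the OSKA + 4OHT wells summed to 8570, 8163 and 8579 TPM and the ratio was 1.75.

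*Aldoa*, *Pgk1*, *Pkm* and *Ldha* rose in the OSKA + 4OHT group at an adjusted p-value under 0.05 in limma, that is 4 of the 10 genes, where 3.52% of all tested genes rose and, among the 1408 genes that averaged 100 TPM or more, 5.82% rose. *Pgk1* and *Ldha* also passed a fold change above 2, a rule that 2.87% of all tested genes passed upwards. In 8 of the 10 genes the lowest treated well lay above the highest control well, against 18.1% of all tested genes and 22.6% of those that averaged 100 TPM or more. In the remaining *Pfkp* and *Eno1* the groups overlapped. All 10 fold changes were above 0, as were 59.3% of all tested genes, and their median log2 fold change was 0.98 against 0.14 over all tested genes. Of the genes called in either direction, 64.1% were higher, a share that fell to 53.2% after trimmed mean scaling and to 49.7% after quantile normalization, which brought the median of all genes from 0.14 to −0.005. Under these scalings the 10 fold changes stayed above 0, with medians of 0.89 and 1.07.

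The adjusted p-values of *Pfkm* (0.0531), *Tpi1* (0.0549) and *Pfkl* (0.0579) lay just above the threshold. When genes averaging under 5 TPM were left out, which leaves 11035 genes to adjust over, all 3 passed at 0.041, 0.0452 and 0.0471, and 7 of the 10 genes rose, where 4.84% of the 11035 rose. Without any filter the adjusted p-values of the 3 were 0.0764, 0.0811 and 0.0812, and without a variance trend 0.0723, 0.101 and 0.0926. *Pfkm* also passed after trimmed mean scaling (0.0495). When a well was left out, the 3 genes did not pass in any fit (0.0501 to 0.183). The calls also depended on single wells. Without OSKA + 4OHT replicate 1, 1 gene (*Ldha*) passed, where 0.735% of all tested genes rose. Leaving out OSKA + 4OHT replicate 2 left *Pkm* and *Ldha* (0.805% of all tested genes), and leaving out OSKA − 4OHT replicate 2 left *Aldoa* and *Ldha* (1.50%). Without OSKA + 4OHT replicate 3 there were 5, the 4 named above and *Pgam1* (1.86%). Without OSKA − 4OHT replicate 1 (1.76%) or 3 (2.08%), 4 genes passed. *Ldha* passed whichever well was left out.

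**Figure D1:**
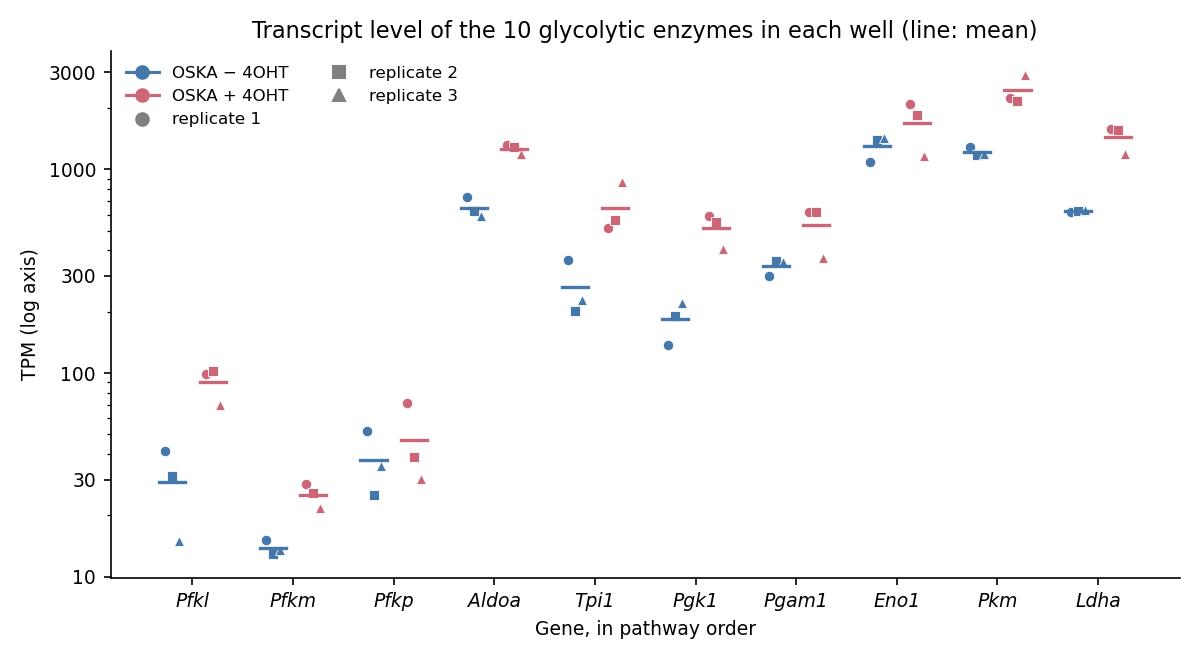
Level of each of the 10 genes in each well, in TPM on a log axis, with genes in pathway order on the horizontal axis, 1 point per well (marker shape for the replicate number) and a line at the group mean. The OSKA + 4OHT wells lie above all OSKA − 4OHT wells in 8 genes and overlap them in *Pfkp* and *Eno1*.

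**Figure D2:**
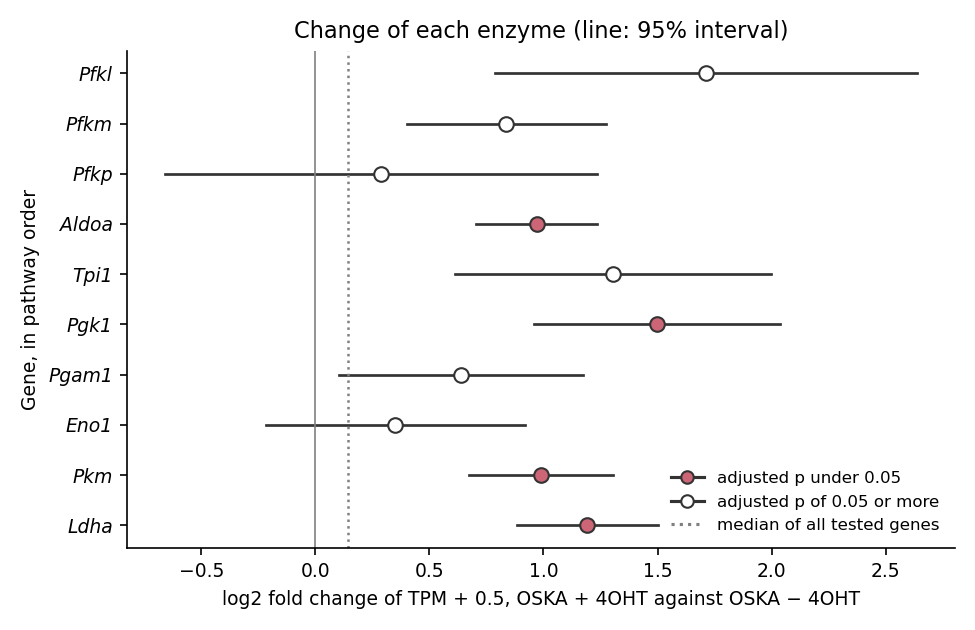
Log2 fold change of TPM + 0.5 for each gene (points) with its 95% interval (lines) from limma, 3 wells per group, with filled points for an adjusted p under 0.05 and a dotted line at the median of all tested genes. The estimates run from 0.29 for *Pfkp* to 1.71 for *Pfkl*, and the intervals of *Pfkp* and *Eno1* include 0.

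Lactate dehydrogenase A, encoded by *Ldha* (chr7:46841475-46855627, plus strand, GRCm38), favours the reduction of pyruvate to lactate. *Ldha* measured 619.7, 628 and 632 TPM in OSKA − 4OHT replicates 1, 2 and 3, and 1571, 1564 and 1195 TPM in OSKA + 4OHT replicates 1, 2 and 3. The control wells lay within a few percent of each other, and the lowest treated well was still well above them. Its log2 fold change was 1.19 (95% interval 0.88 to 1.50, n = 3 wells per group, limma adjusted p = 0.00728). *Ldhb*, the isoenzyme gene that predominates in oxidative tissues, measured 15.9, 27.0 and 35.9 TPM against 35.9, 40.2 and 33.3 TPM, and its groups overlapped (log2 fold change 0.54, SE 0.31, adjusted p = 0.374). The share of *Ldha* in the summed TPM of both genes was 96.0% ± 1.44 (SD, n = 3) without 4OHT and 97.5% ± 0.24 (SD, n = 3) with it, and the 2-sided exact permutation test gave p = 0.2 (0.267 adjusted over the 4 shares tested here). The smallest p that 3 wells against 3 allow is 0.1.

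Pyruvate kinase makes pyruvate and ATP in the last step before lactate. *Pkm* (chr9:59656368-59679375, plus strand) measured 1291, 1181 and 1190.4 TPM without 4OHT and 2243, 2175 and 2918 TPM with it. The groups were far apart, and OSKA + 4OHT replicate 3 was the highest of all wells. The log2 fold change was 0.99 (95% interval 0.67 to 1.31, adjusted p = 0.013). The call was lost without OSKA − 4OHT replicate 2 (adjusted p = 0.0577), without OSKA + 4OHT replicate 1 (0.0562) and when limma was run without a variance trend (0.054), with the log2 fold change between 0.97 and 1.05 in these fits. The values are summed over transcripts, so the M1 and M2 forms that arise from alternative exons of *Pkm* were not separated. Of the 4 splicing factor genes that act on this choice (*Ptbp1*, *Hnrnpa1*, *Hnrnpa2b1* and *Srsf3*), 0 passed in limma and 0 had an unadjusted p under 0.05. Among all tested genes 3.52% rose and 21.3% had such an unadjusted p, so 0 of 4 says little about these genes. All 4 estimates were above 0, as were 59.3% of all tested genes, with a median log2 fold change of 0.235 against 0.144.

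Aldolase cleaves the sugar bisphosphate made by phosphofructokinase. *Aldoa* (chr7:126795234-126800751, minus strand) measured 729, 622 and 593 TPM in the OSKA − 4OHT wells and 1322, 1282 and 1195 TPM in the OSKA + 4OHT wells, a log2 fold change of 0.97 (95% interval 0.71 to 1.24, adjusted p = 0.00861). All treated wells were above all control wells, with a gap several times the spread within either group. The adjusted p was 0.0562 without OSKA + 4OHT replicate 1 and 0.0506 without OSKA + 4OHT replicate 2. The row of the other *Aldoa* identifier, at chr7:126800790-126809108 just upstream, was listed at 0 in all control wells and at 1.67, 1.98 and 0 TPM in the treated wells, and did not pass the filter on low values. The brain-type isoenzyme gene *Aldoc* measured 24.1, 11.6 and 11.2 TPM against 64.7, 43.5 and 58.9 TPM and rose by a log2 fold change of 1.87 (SE 0.34, adjusted p = 0.0321). Its call was lost without a variance trend (adjusted p = 0.0556) and in 5 of the 6 fits that left out a well, all but that without OSKA − 4OHT replicate 1 (0.0834 to 0.119). At these levels *Aldoa* still made up 95.3% to 96.7% of the summed TPM of both aldolase genes in the OSKA + 4OHT wells and 96.8% to 98.2% in the OSKA − 4OHT wells.

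Phosphoglycerate kinase transfers phosphate from bisphosphoglycerate to ADP. *Pgk1* (chrX:106187100-106203699, plus strand) measured 138, 192 and 220.4 TPM in OSKA − 4OHT replicates 1, 2 and 3 and 591, 549 and 407 TPM in OSKA + 4OHT replicates 1, 2 and 3. The groups did not overlap, and the control wells varied more than those of *Ldha*. The log2 fold change was 1.50 (95% interval 0.96 to 2.04, adjusted p = 0.0183), and the adjusted p was 0.0638 without OSKA − 4OHT replicate 2, 0.0823 without OSKA + 4OHT replicate 1 and 0.0834 without OSKA + 4OHT replicate 2.

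Part of the spread of *Pgk1* went together with a copy of the gene. The processed pseudogene *Pgk1-rs7* (chr12:10898986-10900240, minus strand, GRCm38), an intronless copy, matched *Pgk1* over its whole annotated length of 1255 bases with 100% identity, and 67.9% of all 50-base stretches of the longest *Pgk1* coding transcript, the length of the reads, also occurred in it. A read from such a stretch cannot be assigned to either locus. The stretch of coding bases 2 to 51 of *Pgk1* (exon 1, chrX:106187252-106187301, GRCm38) is printed to show this identity and was held by *Pgk1*, *Pgk1-rs7* and *Gm5537*, another processed pseudogene, which was listed at 0 in every well.

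Pgk1, coding bases 2 to 51: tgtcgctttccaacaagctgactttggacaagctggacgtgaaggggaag

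*Pgk1-rs7* had 142, 90.2 and 75.0 TPM in control replicates 1, 2 and 3, the reverse order of *Pgk1*, and 209, 277 and 135 TPM in the treated wells. Its share of the summed level of both genes therefore ran from 25.4% to 50.8% among the control wells and from 25.0% to 33.6% among the treated wells. The sum of both genes was 280.3, 282 and 295 TPM in the control wells and 799.6, 826 and 542 TPM in the treated wells. The coefficient of variation of the control wells was 22.9% for *Pgk1* alone and 2.92% for the sum, while among the treated wells it was 18.7% and 21.7%. With the near-identical copies of each gene summed before the fit, the log2 fold change of *Pgk1* was 1.31 (95% interval 0.89 to 1.74, adjusted p = 0.0132), and the same 4 genes passed.

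**Figure D3:**
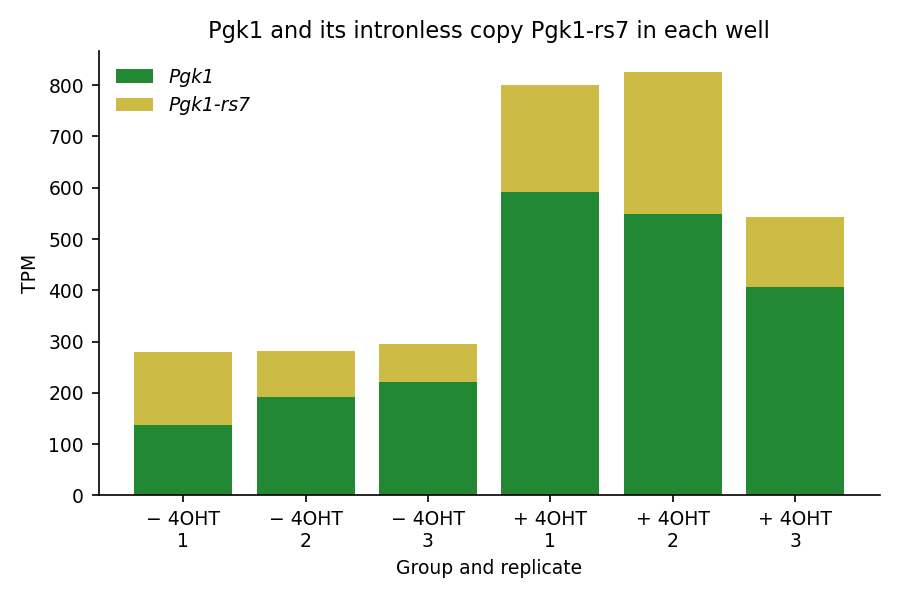
TPM of *Pgk1* and of its processed copy *Pgk1-rs7* stacked for each well, with group and replicate on the horizontal axis. The stacks of the 3 OSKA − 4OHT wells are nearly level at 280.3 to 295 TPM although the *Pgk1* part runs from 138 to 220.4 TPM.

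Other genes of the set share sequence with copies to a different extent. Of the 50-base stretches of the longest coding transcript of each, none of *Pfkm* or *Pfkp* and 0.1% of those of *Pfkl* occurred on the same strand in a transcript of another annotated gene, against 7.5% for *Tpi1*, 13.5% for *Aldoa*, 16.6% for *Ldha*, 34.4% for *Pkm*, 41.5% for *Pgam1* and 72.2% for *Eno1*. A different *Pfkm* transcript matched the antisense gene *Gm26513* over 345 bases with 99.7% identity, and that gene was listed at 0 to 0.220 TPM. The copy of *Pgam1*, *Pgam1-ps2*, was listed at 0 in every well. *Gm6560*, the leading copy of *Pkm*, was listed at 0 to 6.06 TPM. The values of *Eno1*, *Pgk1*, *Pgam1* and *Pkm* thus depend in part on how Salmon divided shared reads between loci. With the copies summed, the log2 fold change stayed at 0.64 for *Pgam1* and 0.99 for *Pkm*. It went from 0.35 to 0.37 for *Eno1* and from 1.50 to 1.31 for *Pgk1*.

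The promoters of all 10 genes were searched for the letters ACGTG and GCGTG, the core of the element bound by hypoxia-inducible factors, which are known activators of glycolytic genes. The windows were the 250 bases before the RefSeq start nearest to a principal transcript (GRCm38.p6), and both strands were searched. The windows of *Ldha*, *Pgk1* and *Aldoa* are printed because these genes rose and their windows overlap no annotated exon, with that of *Pgam1* as a gene that did not pass. They are written 5′ to 3′ on the strand of the gene, and capitals mark the core letters or their reverse complement. That of *Ldha* (chr7:46845554-46845803, plus strand) and that of *Aldoa* (chr7:126799255-126799504, minus strand) lie inside the annotated spans of these genes, upstream of the first exon of the principal transcript. Those of *Pgk1* (chrX:106186850-106187099, plus strand) and *Pgam1* (chr19:41911621-41911870, plus strand) lie just upstream of their genes.

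Ldha promoter: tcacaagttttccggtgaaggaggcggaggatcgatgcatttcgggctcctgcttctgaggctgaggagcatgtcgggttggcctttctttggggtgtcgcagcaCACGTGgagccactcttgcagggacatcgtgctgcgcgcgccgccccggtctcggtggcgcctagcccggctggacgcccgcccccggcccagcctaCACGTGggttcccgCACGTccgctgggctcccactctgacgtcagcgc

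Pgk1 promoter: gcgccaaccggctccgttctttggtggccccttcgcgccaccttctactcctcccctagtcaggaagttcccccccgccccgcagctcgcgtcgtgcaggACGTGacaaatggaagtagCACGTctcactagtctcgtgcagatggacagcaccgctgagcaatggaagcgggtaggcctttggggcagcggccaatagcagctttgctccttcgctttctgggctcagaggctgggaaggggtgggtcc

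Aldoa promoter: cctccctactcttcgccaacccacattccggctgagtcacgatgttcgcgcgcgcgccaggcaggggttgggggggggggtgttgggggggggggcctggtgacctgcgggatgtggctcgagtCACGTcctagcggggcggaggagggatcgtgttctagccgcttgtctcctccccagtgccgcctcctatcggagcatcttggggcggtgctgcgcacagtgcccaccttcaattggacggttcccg

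Pgam1 promoter: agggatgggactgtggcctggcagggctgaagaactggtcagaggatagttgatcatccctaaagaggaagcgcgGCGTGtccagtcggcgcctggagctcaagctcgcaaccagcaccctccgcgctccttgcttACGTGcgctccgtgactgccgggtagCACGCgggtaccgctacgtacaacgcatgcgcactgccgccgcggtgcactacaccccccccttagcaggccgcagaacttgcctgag

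The core letters stood at 3 sites in the *Ldha* window, 2 in that of *Pgk1*, 1 in that of *Aldoa* and 3 in that of *Pgam1*. *Aldoa* has another start equally close to a principal start, whose window (chr7:126800448-126800697, minus strand) held no core site and overlaps an annotated exon. The printed window was kept because its start site has the lower coordinate, and with the other one the counts over the 10 genes given next would be 7 instead of 8, 6 of 9 instead of 7 of 9, and 5 instead of 6 for the GC box in either comparison. In *Ldha*, 2 of the sites were part of CACGTG, the E-box bound by MYC and related factors, which contains ACGTG on both strands. Windows of 8 of the 10 genes held at least 1 site, against 38.6% of the 32851 windows of all genes and 51.3% of the 19344 windows with at least 50% GC, in which 7 of 9 of the glycolytic genes' windows held one. The windows of the 10 genes had a median GC content of 62.8%, against 52.4% for all windows. More than 1 site was found in 4 of the 10 and in 13.4% of all windows, or in 4 of 9 and 20.6% of those with at least 50% GC. The GC box GGGCGG was found in 6 of the 10 and in 32.7% of all windows, or in 6 of 9 and 51.9% of those with at least 50% GC. The windows of *Tpi1* and *Pkm* held no core site. These matches describe letters in a window and say nothing of binding.

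The remaining 6 genes did not pass the threshold. Phosphofructokinase, which turns fructose 6-phosphate into the bisphosphate, is a tetramer of liver, muscle and platelet type subunits encoded by *Pfkl*, *Pfkm* and *Pfkp*. *Pfkl* (chr10:77986947-78010083, minus strand) measured 41.2, 31.3 and 15.0 TPM in OSKA − 4OHT replicates 1, 2 and 3 and 99.5, 103 and 69.8 TPM in OSKA + 4OHT replicates 1, 2 and 3. The groups did not overlap, but the control wells differed widely among themselves, and the log2 fold change of 1.71, the highest estimate of the set, had a 95% interval of 0.79 to 2.64 (adjusted p = 0.0579). *Pfkm* (chr15:98092589-98132451, plus strand) measured 15.1, 12.9 and 13.6 TPM against 28.4, 25.6 and 21.7 TPM. Its groups did not overlap either, and its log2 fold change was 0.84 (95% interval 0.40 to 1.27, adjusted p = 0.0531, and 0.0495 after trimmed mean scaling). *Pfkp* (chr13:6579768-6648777, minus strand) measured 51.9, 25.3 and 35.0 TPM against 71.6, 38.9 and 30.3 TPM. Its wells were mixed between the groups (log2 fold change 0.29, 95% interval −0.66 to 1.24, adjusted p = 0.713), and without OSKA + 4OHT replicate 1 the estimate turned to −0.06 (adjusted p = 0.947).

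The makeup of the phosphofructokinase transcripts was read as shares of the summed TPM of the 3 genes. The share of *Pfkl* was 38.1%, 45.0% and 23.7% in the OSKA − 4OHT wells and 49.8%, 61.4% and 57.3% in the OSKA + 4OHT wells, while that of *Pfkp* was 48.0%, 36.4% and 55.0% against 35.9%, 23.3% and 24.9%. *Pfkl* was the leading gene in all 3 OSKA + 4OHT wells and in 1 of the 3 OSKA − 4OHT wells, where *Pfkp* led in the others. The mean share of *Pfkl* was 35.6% ± 10.9 (SD, n = 3) against 56.2% ± 5.87 (SD, n = 3), and that of *Pfkp* was 46.5% ± 9.42 against 28.0% ± 6.88. In both cases the groups did not overlap and the 2-sided exact permutation test gave p = 0.1, the smallest it can give with 3 wells against 3 (0.2 adjusted over the 4 shares), so this design cannot reach 0.05. The share of *Pfkm* was 18.0% ± 3.74 against 15.8% ± 1.82 (exact permutation p = 0.5, adjusted 0.5). These 3 shares add up to 100% and are not independent of each other.

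**Figure D4:**
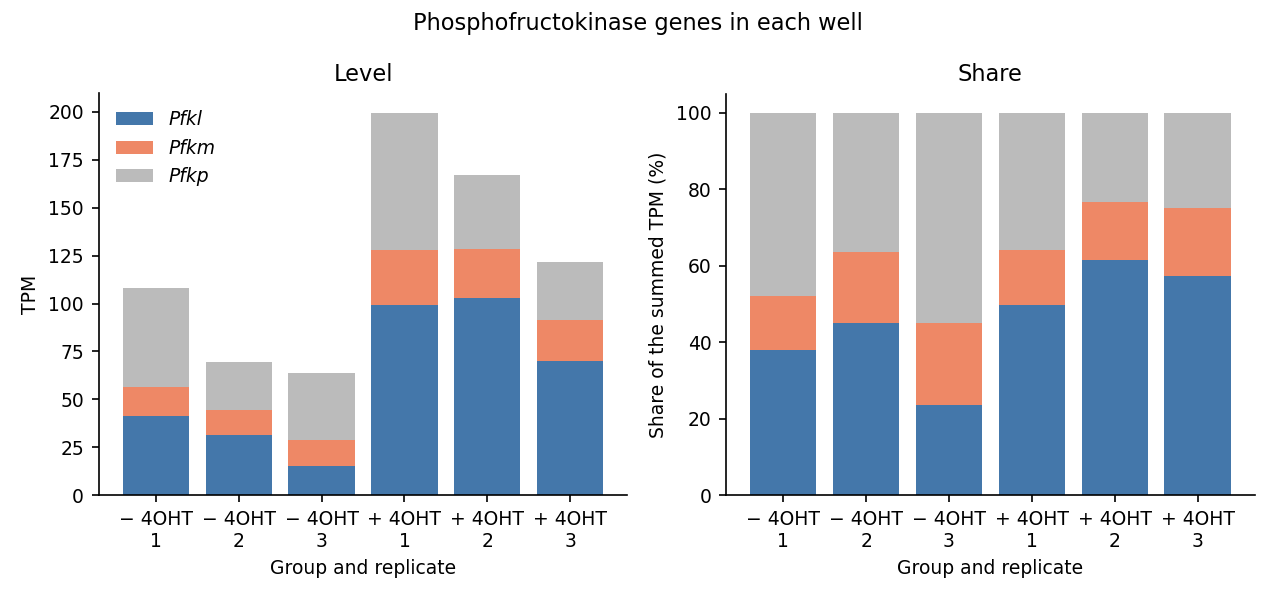
Left, TPM of *Pfkl*, *Pfkm* and *Pfkp* stacked for each well. Right, the share of each gene in the sum of the 3, in percent, where *Pfkl* takes 23.7% to 45.0% in the OSKA − 4OHT wells and 49.8% to 61.4% in the OSKA + 4OHT wells.

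Triosephosphate isomerase interconverts the trioses made by aldolase. *Tpi1* (chr6:124810586-124814296, minus strand) measured 360.2, 201 and 228 TPM against 513, 562 and 868 TPM. All treated wells were above all control wells, with a wide spread in both groups, and the log2 fold change was 1.31 (95% interval 0.61 to 2.00, adjusted p = 0.0549). Phosphoglycerate mutase moves the phosphate of phosphoglycerate. *Pgam1* (chr19:41911923-41918660, plus strand) measured 299, 354 and 351 TPM against 618, 614 and 369 TPM, so that OSKA + 4OHT replicate 3 was close to the controls and the other 2 treated wells were not. The log2 fold change was 0.64 (95% interval 0.10 to 1.17, adjusted p = 0.168). Without that well it was 0.89 with an adjusted p of 0.0349.

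Enolase forms phosphoenolpyruvate. *Eno1* (chr4:150236721-150248879, plus strand), the gene of the ubiquitous form, measured 1089, 1402 and 1419.8 TPM against 2086, 1845 and 1168 TPM. OSKA + 4OHT replicate 3 fell among the controls, and the log2 fold change was 0.35 (95% interval −0.21 to 0.92, adjusted p = 0.457). In the same well its near-identical copy *Eno1b* was listed at 125 TPM, against 0 to 56.7 TPM in the other 5 wells, which is 9.65% of the sum of both. Adding the copies gave a log2 fold change of 0.37 (95% interval −0.12 to 0.86, adjusted p = 0.364). The neuronal gene *Eno2* measured 6.96, 10.9 and 6.57 TPM against 30.1, 44.5 and 10.6 TPM, with the groups overlapping (log2 fold change 1.55, SE 0.53, adjusted p = 0.162). Without OSKA + 4OHT replicate 3, the well with 10.6 TPM, 1 isoenzyme gene other than *Aldoc* rose. The muscle gene *Eno3* measured 29.3, 20.9 and 31.7 TPM against 26.1, 25.6 and 47.0 TPM (log2 fold change 0.23, SE 0.30, adjusted p = 0.699).

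OSKA + 4OHT replicate 3 differed from the other treated wells across the set. It was the lowest of the treated wells for 8 of the 10 genes and the highest for *Tpi1* and *Pkm*. Over all tested genes it was the lowest treated well for 47.3%, and for 55.2% of the genes that averaged 100 TPM or more. This well also had the highest share of mitochondrially encoded transcripts, 20.8%, and the lowest factor in trimmed mean scaling, 0.961 against 1.07 in both other treated wells. The part of these values in the levels of single genes was not tested.

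**Figure D5:**
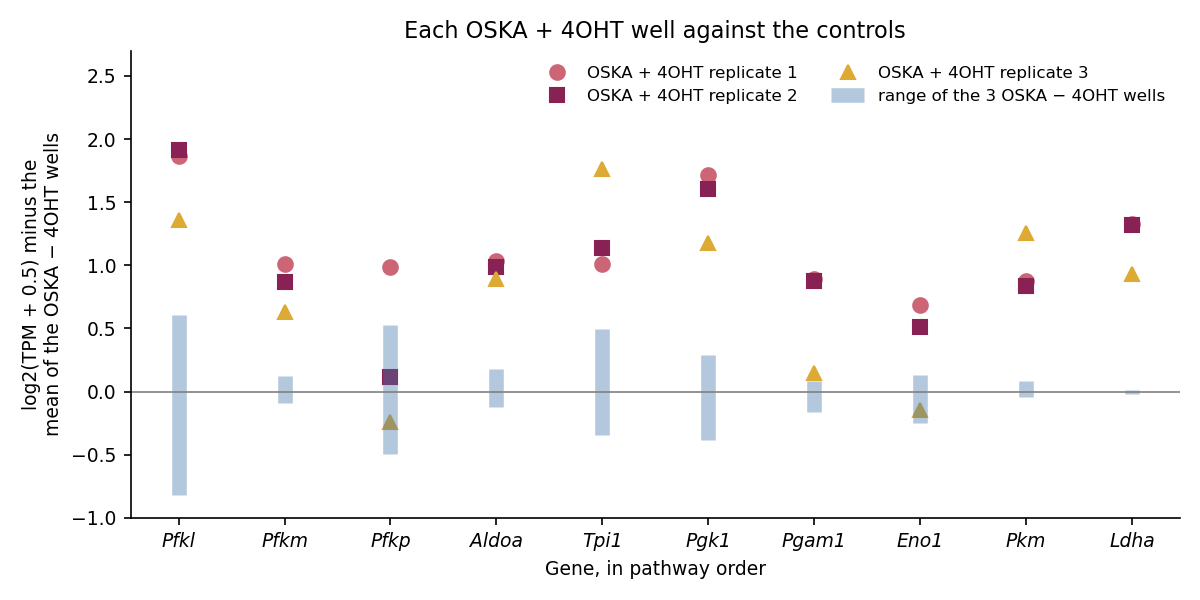
Log2(TPM + 0.5) of each gene in each OSKA + 4OHT well (points) minus the mean of the OSKA − 4OHT wells, with bars for the range of the 3 OSKA − 4OHT wells. Replicate 3 lies inside or near the control range for *Pfkp*, *Pgam1* and *Eno1* and above the other treated wells for *Tpi1* and *Pkm*.

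Since TPM is per length, the levels of the 8 steps that the 10 genes serve could be ordered, with the isoenzyme genes of a step added and the upper steps and *Gapdh* left out. Phosphofructokinase was the lowest of these 8 in every well, at 63.6 to 108 TPM without 4OHT and 122 to 199.5 TPM with it. Pyruvate kinase (1221 ± 61.0 TPM, SD, n = 3) and enolase (1339 ± 186 TPM) were the highest of the 8 in the control wells and could not be ordered beyond their spread. Pyruvate kinase was the highest of the 8 in all OSKA + 4OHT wells (2446 ± 411 TPM), where enolase (1761 ± 477 TPM), lactate dehydrogenase (1480.0 ± 218 TPM) and aldolase (1322 ± 66.8 TPM) overlapped. Triosephosphate isomerase, phosphoglycerate kinase and phosphoglycerate mutase lay between these and phosphofructokinase in both groups, at 138 to 360.2 TPM in the control wells and 369 to 868 TPM in the treated wells. *Ldhd*, which encodes a mitochondrial enzyme for D-lactate and was not added to lactate dehydrogenase, measured 0.776, 0.665 and 19.6 TPM against 0.332, 2.69 and 2.95 TPM (log2 fold change −0.57, SE 1.24, adjusted p = 0.829). *Pklr*, the pyruvate kinase gene of liver and red blood cells, and *Ldhc*, the lactate dehydrogenase gene of testis, were listed at 0 in every well, and *Pgk2* and *Pgam2* did not pass the filter on low values.

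Upstream and between these steps, 4 of 7 genes rose, against 3.52% of all tested genes: *Slc2a1*, *Hk1*, *Gpi1* and *Gapdh*. Of these, *Hk1* and *Gapdh* were named after their values were seen. The median log2 fold change over the 7 genes was 1.06, against 0.14 over all tested genes. The glucose transporter gene *Slc2a1* had the largest fold change of the 7, from 32.0, 55.9 and 27.1 TPM to 289.8, 326 and 289.1 TPM (log2 fold change 3.03, SE 0.27, adjusted p = 0.00462). *Gpi1*, whose product makes fructose 6-phosphate, the substrate of phosphofructokinase, measured 427, 393 and 394 TPM against 935, 826 and 772 TPM (log2 fold change 1.06, SE 0.11, adjusted p = 0.00616). *Slc2a1* and *Gpi1* passed in every fit that left out a well. *Gapdh*, which acts between *Tpi1* and *Pgk1*, measured 2579, 2911 and 2432 TPM against 4648, 4252 and 4319.6 TPM (log2 fold change 0.74, SE 0.09, adjusted p = 0.0115), and its call was lost without OSKA + 4OHT replicate 1 (0.0634) or 2 (0.0529), without a filter on low genes (0.0711) and without a variance trend (0.0738). *Hk1*, a hexokinase gene, had a log2 fold change of 2.25 (SE 0.37, adjusted p = 0.0248), with 204 and 169.5 TPM in OSKA + 4OHT replicates 1 and 2, 436 TPM in replicate 3 and 44.3 to 63.9 TPM in the controls. It did not pass when any well but OSKA + 4OHT replicate 3 was left out (0.0529 to 0.08).

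Over all tested genes, 3.52% rose. Among 5 genes that set the level of fructose 2,6-bisphosphate, the allosteric activator of phosphofructokinase, only *Tigar*, a phosphatase that lowers it, passed. It rose from 9.97, 11.6 and 8.33 TPM to 28.1, 21.3 and 24.5 TPM (log2 fold change 1.27, SE 0.21, adjusted p = 0.025), and the adjusted p was 0.0565 to 0.097 when each of the 6 wells was left out in turn. Of 6 lactate and pyruvate carrier genes, the lactate exporter gene *Slc16a3* rose from 18.7, 12.4 and 14.0 TPM to 119.8, 119.7 and 60.6 TPM (log2 fold change 2.65, SE 0.32, adjusted p = 0.0102, and 0.0562 and 0.0529 without OSKA + 4OHT replicate 1 or 2). Among 11 genes of the pyruvate dehydrogenase complex with its kinases and phosphatases, *Pdk1*, whose kinase holds the complex inactive, rose from 17.0, 20.6 and 24.6 TPM to 61.5, 79.2 and 42.3 TPM (log2 fold change 1.51, SE 0.27, adjusted p = 0.0326). It did not pass without a variance trend (0.057) or when any well but OSKA + 4OHT replicate 3 was left out (0.0628 to 0.118). The median log2 fold change of these 11 genes was −0.21, against 0.14 over all tested genes. At an unadjusted p under 0.05 in limma, 3 of them were higher and 3 lower. The lower ones were *Pdha1*, the kinase gene *Pdk4* and the phosphatase gene *Pdp1*, which did not pass after adjustment. *Pcx*, pyruvate carboxylase, was the only one to pass of 4 tested gluconeogenic genes (of 7), with 51.8, 38.9 and 61.3 TPM against 128, 121 and 112 TPM (log2 fold change 1.26, SE 0.19, adjusted p = 0.0199). Its adjusted p was 0.0583 to 0.0885 without OSKA − 4OHT replicate 1 or any one of the OSKA + 4OHT wells. Of 11 genes that lead from glycolytic intermediates into other pathways, 0 passed in limma, and 3 were higher and 1 lower at an unadjusted p under 0.05, which 21.3% of all tested genes had in either direction.

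Of 11 tested transcription factor genes (of 12) known to act on glycolytic genes, *Mycn* rose and *Myc* fell. Over all 15382 tested genes, 542 rose and 303 fell. The median log2 fold change of the 11 genes was −0.22, against 0.14 over all tested genes. *Myc* measured 41.2, 36.7 and 41.5 TPM against 17.8, 19.3 and 18.4 TPM (log2 fold change −1.08, SE 0.15, adjusted p = 0.0144), with adjusted p-values of 0.0513, 0.0699 and 0.0613 without OSKA − 4OHT replicate 1 and OSKA + 4OHT replicates 1 and 2. *Mycn* stayed low, at 1.23, 0.551 and 0.688 TPM against 4.51, 4.73 and 5.51 TPM (log2 fold change 2.06, SE 0.38, adjusted p = 0.0338). It did not pass without a filter (0.0702), after quantile normalization (0.0627) or when any well was left out (0.0528 to 0.135). *Hif1a*, named here because the promoter search was for its element and not by the rule, measured 87.7, 72.3 and 78.2 TPM against 92.1, 91.5 and 85.2 TPM, with the groups overlapping (log2 fold change 0.18, SE 0.13, adjusted p = 0.511).

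The genes whose levels over the 6 wells were most like the mean pattern of the set were searched among 8718 genes outside all lists that averaged 10 TPM or more. The 5 with the highest Pearson correlation were *Pclaf* (0.997), *Cltc* (0.995), *Itga4* (0.994), *Socs2* (0.993) and *Eif2ak2* (0.993), and 283 genes had a correlation above 0.95. Such values are a description over 6 wells that share the 2 groups. *Pclaf*, which encodes a PCNA-binding protein of DNA replication, measured 35.9, 32.5 and 30.6 TPM against 78.8, 72.0 and 55.7 TPM, with the same order of the treated wells as the summed level of the glycolytic genes.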

How the data were processed

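RNA of 6 wells was sequenced by the authors with 50-base single-end reads from stranded polyA libraries, trimmed with Trim Galore and quantified with Salmon, and they deposited TPM per gene and well. The annotation release and versions are not given in the sources used here. Depth is not kept in TPM, so precision was read from the spread between wells. The deposited log2 fold change, log2 average level, score (F statistic) and p-value of the authors' own comparison were not used. Symbols and positions came from GENCODE M21 (GRCm38), where 54097 of 54331 identifiers matched, and promoters from RefSeq (GRCm38.p6).

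Differences were fitted with limma 3.58.1 (R 4.3.3, variance trend, Benjamini-Hochberg) on log2(TPM + 0.5) over the 15382 genes averaging 1 TPM or more. In simulated data of this comparison, 0% of 200 genes changed by a log2 fold change of 1 (among 14664) and 51% of 200 changed by 2 (among 14678) were recovered, with 0 and 5 false calls. Only these 200 genes changed there, while 21.3% of all tested genes had an unadjusted p under 0.05 in limma on the real data. Adjustment was thus stricter in the simulation, and its recovery is not that of the real comparison. A gene that did not pass is still not shown to be unchanged. Shares were compared with exact permutation tests over wells. Copies were searched for with BLAST 2.17.0 (at least 95% identity over 100 bases), and those aligned over at least 50% of their length were summed with their gene in 1 alternative. The glycolytic genes and the other gene lists were chosen with earlier results of these data known. Named genes were every enzyme of the set, every tested isoenzyme gene and the 5 most alike genes. In each other pathway list, up to 2 genes in each direction were named, those with the smallest adjusted p among the genes that passed. Of the markers, those that passed were named, with *Myod1*, *Myog* and *Hbb-y* added. *Hk1*, *Gapdh*, *Hif1a*, *Pdha1*, *Pdk4*, *Pdp1* and the splicing factor genes were named outside this rule. Pseudocounts of 0.1 and 2, no filter and a filter of 5 TPM, both scalings, a fit without a variance trend, a replicate block, leaving out each well and summing the copies were tried. The per-well sum of *Pgk1* and its copy was chosen after the data were seen.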

Additional observations from a re-analysis of the deposited data

How the results depend on the processing

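All 10 fold changes kept their direction in every alternative except that of *Pfkp*, which was −0.062 to 0.55 when wells were left out. Among the isoenzyme genes, leaving out wells moved *Eno3* between −0.054 and 0.38 and *Ldhd* between −1.27 and 0.78, through 0. The number of glycolytic genes that rose was 4 with either pseudocount, without a filter, after quantile normalization and with copies summed, 3 without a variance trend, 5 after trimmed mean scaling, 7 with a filter of 5 TPM and 1 to 5 when a well was left out. With a fold above 2 it was 2 in the main fit, 4 with the stricter filter or quantile normalization, and 1 to 4 when a well was left out. Over all genes, leaving out a well gave 112 to 318 higher and 63 to 147 lower genes, or 111 to 303 and 63 to 127 with a fold above 2, against 542, 303, 441 and 210 with 6 wells. Such fits have fewer samples. The cause of the other changes was not tested.

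Whether the replicate numbers pair the wells could not be settled. The deviations of same-numbered wells correlated weakly, at 0.024, 0.034 and 0.084, against −0.062 to 0.033 for the other pairings. Of the 3 same-numbered pairs, 2 correlated better than any other pairing of either well. With the number as a replicate block, 31 genes were higher and 16 lower, all with a fold above 2, and 0 of the 10 glycolytic genes passed in limma, with adjusted p-values of 0.0607 to 0.107 for the 4 genes that passed without it. In this fit 8 of the 10 had an unadjusted p under 0.05, as did 18.7% of all tested genes. In that fit 1 of the 7 upper glycolytic genes passed. None rose or fell among the isoenzymes, the phosphofructokinase regulator genes, the carriers, the pyruvate dehydrogenase genes, the gluconeogenic genes and the transcription factors.

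In the other lists, the transcription factors had 0 higher genes without a filter, with a filter of 5 TPM, after quantile normalization and whichever well was left out, and 0 to 1 lower. Quantile normalization gave 2 carriers higher and 1 pyruvate dehydrogenase gene lower, and the fit without a variance trend gave 0 isoenzymes and 0 pyruvate dehydrogenase genes higher and 1 of the latter lower. Leaving out a well gave 2 to 4 upper glycolytic genes, 0 phosphofructokinase regulator genes, and 0 to 1 isoenzymes, carriers, pyruvate dehydrogenase, gluconeogenic and branch genes higher. The difference of the summed TPM was 4054 as deposited, 3627 after trimmed mean scaling and 3840 to 4291 when a well was left out. That in the share of *Pfkl* was 14.6 to 25.3 percentage points, of *Pfkp* −23.5 to −14.2, of *Pfkm* −4.17 to −0.47 and of *Ldha* 0.83 to 2.26.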
